A study of Mus musculus with 11 samples.

Results

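The comparison was between mouse embryonic stem cells (ESCs) making the mutant DGCR8 E518K and ESCs making wild-type DGCR8, both under doxycycline. It used 6 of the 11 small RNA libraries of the series, and its members were the mature miRNAs in those libraries that passed a low-count filter, 530 of 1966 listed. The E518K group was clones 8, 13 and 15 (labelled genotype DGCR8 E518K/E518K, transfected with pSB ET iE-FlagDGCR8-E518K). The wild-type group was clones 10, 12 and 16 (DGCR8 wt/wt, pSB ET iE-FlagDGCR8-wt). All 6 clones had also received pCMV(CAT)-SB100X, were labelled as strain NBA1-19349 (Novus Biochemicals) and had been given doxycycline at 300 ng/mL for 48 h. They were grown without feeder cells in 2i medium with LIF, which holds ESCs in an undifferentiated state. Each library was 1 clone, so the spread within a group is the spread between clones of 1 vector. The level of the DGCR8 protein, and of Dgcr8 mRNA, was not measured in these libraries. Values from 3 induced libraries of non-transfected DGCR8 -/- cells (clone 261, called KO below) and from single untreated libraries (wild-type clone 10, E518K clone 8) are given only beside results they bear on.

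Most miRNAs are cut out of long primary transcripts as hairpins by the microprocessor, in which DGCR8 binds the hairpin and Drosha cuts its base; Dicer then removes the loop and leaves a 5p and a 3p arm. A minority reach Dicer without the microprocessor: mirtrons are spliced out as short introns, some hairpins begin at a capped transcription start, and a few derive from snoRNAs or tRNAs. E518K replaces a glutamate in an RNA-binding domain of DGCR8 and recurs in Wilms tumours. In mouse ESCs the miR-290-295 cluster is the dominant product of the microprocessor, and its members with the AAGUGC seed core promote fast cell cycling.

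The mature sequences that the results turn on are shown with bases 2 to 8, the seed that pairs with targets, in capitals (RefSeq, GRCm38.p6, 5′ to 3′). The first set is from the miR-290-295 cluster and the related miR-302-367 cluster, since miR-293 behaved unlike its neighbours. Neither arm of miR-293 carries the AAGUGCU seed that the other 3 share.
miR-293-5p: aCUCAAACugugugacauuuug
miR-293-3p: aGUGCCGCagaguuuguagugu
miR-294-3p: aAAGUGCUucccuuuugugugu
miR-295-3p: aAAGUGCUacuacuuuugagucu
miR-302b-3p: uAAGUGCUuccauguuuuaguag

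The second set is miRNAs that share a seed but come from separate hairpins, some of which went different ways. It does not hold every tested miRNA with these seeds. miR-25-3p and miR-92a-3p share AUUGCAC, miR-17-5p and miR-20b-5p share AAAGUGC with miR-93-5p and miR-106b-5p, miR-18a-5p and miR-18b-5p share AAGGUGC, and miR-200b-3p and miR-429-3p share AAUACUG.
miR-25-3p: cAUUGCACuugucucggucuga
miR-92a-3p: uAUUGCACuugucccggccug
miR-93-5p: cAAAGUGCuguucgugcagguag
miR-106b-5p: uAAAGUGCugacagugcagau
miR-17-5p: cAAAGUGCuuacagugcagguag
miR-20b-5p: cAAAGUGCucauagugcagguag
miR-18a-5p: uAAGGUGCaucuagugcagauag
miR-18b-5p: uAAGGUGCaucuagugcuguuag
miR-200b-3p: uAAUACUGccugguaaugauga
miR-429-3p: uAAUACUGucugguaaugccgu

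The third set is 4 of the 7 miRNAs called higher both within miRNA and against the reference list, the other arm of Mir136, a pair from 1 transcript that parted, miR-191-5p and miR-425-5p, and miR-134-5p, which fell close to the counting floor.
miR-1981-5p: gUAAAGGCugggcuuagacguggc
miR-1981-3p: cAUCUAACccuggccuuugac
miR-136-5p: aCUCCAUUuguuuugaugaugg
miR-136-3p: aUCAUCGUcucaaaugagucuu
miR-3071-3p: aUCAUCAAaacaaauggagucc
miR-191-5p: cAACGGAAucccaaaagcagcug
miR-425-5p: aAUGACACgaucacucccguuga
miR-134-5p: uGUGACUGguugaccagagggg

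The wild-type libraries held 3394216 (clone 10), 6128734 (clone 12) and 5933843 (clone 16) miRNA counts, and the E518K libraries 1797240 (clone 8), 1050564 (clone 13) and 1418587 (clone 15). Of the counts from 1 to 40, 90.6% were even, so most small RNAs appear to be counted 2 times, and a floor of 3 small RNAs was set at 6 counts. Pearson's r of log2 CPM between clones of 1 group was from 0.965 to 0.987, and a chi-square on their counts was 93.0 to 557 times its degrees of freedom, so no library was taken for a copy of another. Markers of ESCs were present in both groups: the miR-290-295 cluster held 49.5% to 59.5% of the counts in wild type and 26.5% to 32.6% in E518K. Some of its listed members count the same reads. With such miRNAs merged the cluster held 40.6% to 49.5% in wild type and 17.7% to 21.2% in E518K. In bulk RNA, fewer cells of a type and less RNA per cell cannot be told apart.

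The size of the miRNA pool was read against 10 tested miRNAs known to bypass the microprocessor (13 are listed). This reference list held 0.124%, 0.104% and 0.180% of the counts in wild-type clones 10, 12 and 16, and 1.18%, 1.63% and 0.901% in E518K clones 8, 13 and 15. For every 1000 reference counts there were 806994, 959263 and 556541 miRNA counts in the wild-type clones and 85076, 61257 and 110931 in the E518K clones. The groups did not overlap. Relative to these reference miRNAs the pool was thus 9.03-fold smaller in E518K by the group means, 774266 ± 203346 against 85755 ± 24844 (SD, n = 3 each). The SD is between clones only, and the fold was not worked out with other choices of reference miRNAs. The exact two-sided permutation p was 0.10, the smallest that 3 against 3 allows. The KO libraries, which are not wild-type or E518K clones, stood at 5815 to 8142 on this scale.

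**Figure D1:**
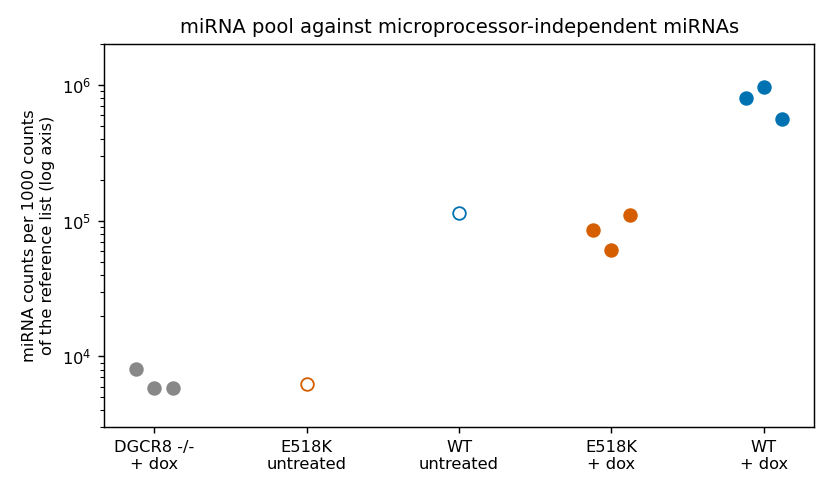
miRNA counts per 1000 counts of the reference list (log axis) in each of the 11 libraries; each point is 1 library, open points had no doxycycline. Induced E518K lies at 61257 to 110931, between the KO (5815 to 8142) and induced wild type (556541 to 959263), and untreated wild-type clone 10 lies at 113736.

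Within the miRNA pool 9 of the 10 tested reference miRNAs rose and none fell (28.9% of all tested miRNAs rose). miR-320-3p, from a capped hairpin, stood at 133, 165 and 124 CPM in the wild-type clones and at 1420, 1512 and 1165 in the E518K clones, with no overlap. CPM here is the usual depth-scaled count, over miRNA counts only, after trimmed-mean (TMM) scaling of library sizes, which takes the bulk of miRNAs as its reference and is called within-miRNA scaling. On it miR-320-3p rose by 3.28 ± 0.29 (log2 change ± SE, edgeR adjusted p = 1.7e-09). miR-484, also from a capped transcript, went from 208 to 302 CPM in wild type to 1294 to 3183 in E518K (3.12 ± 0.34). The mirtron arm miR-877-5p rose by 3.54 ± 0.35, and miR-702-5p and miR-702-3p by 3.71 ± 0.70 and 2.70 ± 0.61, both from few counts (2, 2 and 2 and 6, 2 and 16 in wild type). The tRNA-derived miR-1983 rose by 3.30 ± 0.30, and the snoRNA-derived miR-1291, miR-1839-5p and miR-1839-3p by 2.26, 2.10 and 1.44. miR-1839-3p did not pass without E518K clone 8 (1.15, adjusted p = 0.052) or with the pRPM totals as library sizes (1.25, adjusted p = 0.059).

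miR-877-3p was the exception among the 10. It stood at 160, 123 and 69.4 CPM in wild type and at 76.8, 1033 and 1634 in E518K clones 8, 13 and 15, so that 1 E518K clone lay within the wild-type range. Its change of 2.97 ± 1.18 did not pass (edgeR adjusted p = 0.074). It passed without E518K clone 8 (3.42, adjusted p = 5.7e-14) or wild-type clone 10 (3.16, adjusted p = 7.7e-15), with DESeq2 (adjusted p = 0.0056) and in 5 of the other settings. With the reference list itself setting the scale, the median change of the 10 was 0.18, where miR-1839-5p (−0.70) and miR-1839-3p (−1.35) were called lower.

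Across all miRNAs the scaling decided the balance of calls. With within-miRNA scaling 153 of 530 (28.9%) were higher in E518K and 240 (45.3%) lower (74.2% in either direction) by edgeR's quasi-likelihood test at an adjusted p of 0.05, and 137 did not pass; the median change was −0.56. With upper-quartile scaling 212 were higher and 186 lower, and the median was 0.20. With the reference list as the scale 7 (1.32%) were higher and 442 (83.4%) lower, and the median was −3.36 (84.7% called in either direction). That median depended on the list: it was −3.07 with its mirtrons only. Without its snoRNA- and tRNA-derived members, a setting added after the data were seen, it was −3.67. In 154 miRNAs (29.1%) every E518K library was above every wild-type library within miRNA and in 244 (46.0%) below; on the reference scale these were 10 (1.89%) and 442 (83.4%). The 2 scales differed by 2.80 at the median miRNA. All 240 miRNAs lower within miRNA were lower on the reference scale too; of the 153 higher within miRNA, 67 were lower on the reference scale, 79 did not pass there and 7 stayed higher. The remaining 135 that had not passed within miRNA were lower on the reference scale, and 2 passed on neither. Of the tested miRNAs 99 had fewer than 10 counts in every E518K library and 9 had fewer than 10 in every wild-type library. The low-count filter scales its minimum of 10 counts to library size, so these numbers do not tell through which group each passed. Those at 0 throughout 1 group had to differ to be tested, so the shares above describe the tested set only.

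**Figure D2:**
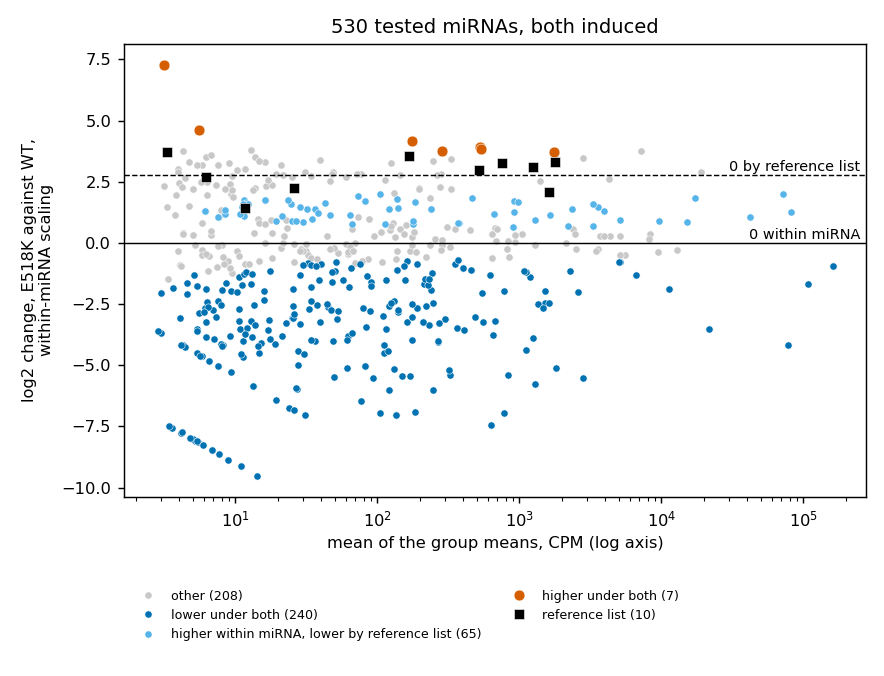
Log2 change of each tested miRNA in E518K against wild type with within-miRNA scaling (vertical) by its mean level in CPM (log axis); the solid line is no change within miRNA and the dashed line is no change on the reference scale, 2.80 higher. Black squares are the 10 reference miRNAs, and orange points the 7 miRNAs that pass as higher on both scales, all above the dashed line; the lowest slanted row at the lower left is 16 miRNAs with 0 counts in every E518K library, whose fitted changes are not bounds.

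The most abundant miRNAs show both scales at work. miR-183-5p, from a sensory and ESC cluster, stood at 29842, 33586 and 21768 CPM in wild type and at 103478, 96257 and 145018 in E518K, without overlap, and rose by 2.02 ± 0.34 within miRNA (edgeR adjusted p = 1.4e-05). Per 1000 reference counts it was at 18306, 24101 and 14877 in wild type and 10653, 7567 and 14835 in E518K. On the reference scale it changed by −0.79 ± 0.38 (adjusted p = 0.048). Leaving out E518K clone 8 or 13, or wild-type clone 10 or 12, ended that call (adjusted p from 0.088 to 0.19). It was also lost with TMM over the list (0.13), with all 11 libraries (0.078), without miR-320 in the list (0.073), in the fit that was not robust (0.057) and with mirtrons only (0.67).

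miR-182-5p (1.26 ± 0.34 within miRNA, −1.56 ± 0.40 on the reference scale) and miR-148a-3p (1.05 ± 0.38 and −1.71 ± 0.40) showed the same turn. The within-miRNA call of miR-148a-3p was lost without E518K clone 15 (0.64, adjusted p = 0.13) or wild-type clone 12 (0.89, adjusted p = 0.053). miR-101a-3p, of a family that targets the Polycomb methylase Ezh2, went from 6027 to 9109 CPM in wild type to 25165 to 30300 in E518K (1.83 ± 0.31 within miRNA, −0.99 ± 0.35 on the reference scale). With mirtrons as the only reference the lower calls of miR-182-5p (−1.25, edgeR adjusted p = 0.21), miR-148a-3p (−1.51, 0.14) and miR-101a-3p (−0.65, 0.56) were lost. The 4 tested members of the miR-101 family were all higher within miRNA and all lower on the reference scale.

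miR-7a-5p, of which the Mir7-1 hairpin lies in an intron of Hnrnpk, fell on both scales. It stood at 193660, 188645 and 105232 CPM in wild type and 52808, 38373 and 63402 in E518K, with no overlap, and changed by −1.66 ± 0.35 within miRNA (edgeR adjusted p = 0.00024). The miR-7 family went from 13.9% ± 0.91 to 5.74% ± 0.74 of the miRNA counts (SD, n = 3 each). miR-292a-5p, the most abundant miRNA of wild type, overlapped between the groups: 255649, 259544 and 118030 CPM in wild type against 99321, 79585 and 152683. Its change of −0.93 ± 0.37 (adjusted p = 0.029) did not pass when any of E518K clones 8 and 13 and wild-type clones 10 and 12 was left out (−0.73 to −0.96), with DESeq2 or with its size factors, on counts divided by 2, with the stricter filter or with upper-quartile scaling, where it was −0.18. miR-292b-3p counts the same reads and cannot be separated from it.

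The let-7 family, which rises as stem cells differentiate, held a larger share of the pool in E518K, 5.75% to 7.91% against 0.475% to 1.46% in wild type. Within miRNA 11 of its 13 tested members were higher, against 28.9% of all tested miRNAs, and 1, let-7e-5p, was lower. let-7f-5p stood at 2620, 8159 and 2493 CPM in wild type and 35635, 30249 and 34251 in E518K (2.92 ± 0.43). Per 1000 reference counts the groups overlapped, at 1607, 5855 and 1704 against 3669, 2378 and 3504, and the change was 0.06 ± 0.39 (adjusted p = 0.90). It passed as higher without wild-type clone 12 (0.94, adjusted p = 0.027). let-7a-5p was at 0.88 ± 0.45 on that scale (adjusted p = 0.079), and at 1.81 (adjusted p = 0.00019) without wild-type clone 12, the wild-type library with the most let-7. It also passed without E518K clone 15 (0.99, adjusted p = 0.019) and under 6 of the other settings. On the reference scale 9 of the 13 did not pass and 4 were lower.

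Some miRNAs of at least 100 CPM in wild type fell close to the floor of 6 counts in E518K. miR-134-5p, from an exon of the imprinted noncoding RNA Mirg, went from 1676, 869 and 1232 CPM to 8.28, 4.45 and 8.41, which are 18, 6 and 11 counts (−7.45 ± 0.41 within miRNA and −10.22 ± 0.52 on the reference scale, edgeR adjusted p = 2.6e-12 and 8.4e-32). miR-196a-5p, encoded in the Hox clusters, went from 1225, 1849 and 1538 CPM to 23.0, 5.93 and 6.12 (−6.95 ± 0.49). In both the groups lay far apart.

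miR-151-3p, from an intron of Ptk2, changed by −5.41 ± 0.35, from 2189, 1465 and 1218 CPM to 37.2, 32.6 and 44.3. miR-192-5p changed by −6.00 ± 0.39 and miR-379-5p, the head of the large Dlk1-Dio3 cluster, by −5.50 ± 0.38, from 4348 to 7437 CPM down to 74.9 to 167. Others reached the floor, so no fold is given for them. miR-151-5p was at 111 to 190 CPM in wild type and at 2, 4 and 2 counts in E518K, and miR-196a-1-3p at 261 to 470 CPM and then 4, 4 and 6 counts. miR-1198-5p was at 165 to 231 CPM and then 4, 0 and 4 counts, and miR-130b-5p at 212 to 266 CPM and then 10, 2 and 6 counts. miR-299a-3p, which counts the same reads as miR-299b-5p on the opposite strand, was at 228 to 305 CPM and then 6, 0 and 4 counts. All 5 were called lower on both scales. Their wild-type counts let them through the filter, and except for miR-130b-5p none reached 10 counts in an E518K library. In 16 tested miRNAs every E518K library was at 0. Of these miR-130b-3p was the most abundant in wild type, 28.5 ± 8.41 CPM (SD, n = 3), at least 7.24-fold lower in E518K against a floor of 6 counts per library.

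Other miRNAs fell less. miR-30e-3p, from an intron of Nfyc, changed by −4.02 ± 0.34, and miR-128-3p, abundant in neurons, by −2.67 ± 0.30. miR-143-3p, a smooth muscle and fibroblast miRNA, changed by −2.49 ± 0.33. miR-21a-5p, an oncomiR encoded in a transcript of Vmp1, changed by −1.29 ± 0.32, and this call was lost with upper-quartile scaling (−0.53, adjusted p = 0.17). On the other side, miR-29a-3p went from 43.4, 56.7 and 69.4 CPM to 574, 779 and 462 (3.41 ± 0.32 within miRNA; 0.54 ± 0.37, adjusted p = 0.17, on the reference scale). miR-222-3p and miR-221-3p, regulators of the cell cycle inhibitor p27, were 2.83 ± 0.29 and 2.28 ± 0.31 higher within miRNA and at −0.01 and −0.61 on the reference scale, where neither passed. miR-5099 was 3.46 ± 0.41 higher within miRNA and at 0.72 (adjusted p = 0.077) on the reference scale, and passed there without E518K clone 13 (1.09, adjusted p = 0.00029) and in 3 of the other settings. Among abundant miRNAs that did not pass within miRNA were miR-26a-5p (0.14 ± 0.28, edgeR adjusted p = 0.64; it passed with upper-quartile scaling, 0.89, adjusted p = 0.013) and miR-27b-3p (−0.35 ± 0.28, adjusted p = 0.27); on the reference scale they changed by −2.70 and −3.16.

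Several families and clusters had members called in both directions, against 28.9% higher and 45.3% lower over all tested miRNAs. Of the family of miR-15 and miR-16 9 of 15 tested members were lower within miRNA and 1 higher, miR-16-1-3p (1.59 ± 0.31, from 2041, 1651 and 1265 CPM to 4755, 3498 and 6714). Of the family of miR-130 and miR-301 6 of 8 were lower and 1 higher, and of that of miR-28 and miR-151 4 of 6 and 1. The median changes were −2.44, −2.40 and −3.54, against −0.56 over all tested miRNAs. The miR-29 family (2 of 2 higher, median 3.15), the cluster of miR-221 and miR-222 (3 of 4 higher, median 2.50) and the miR-183-96-182 cluster (6 of 6 higher, median 1.91) lay at the high end. Of 84 tested miRNAs of the Dlk1-Dio3 imprinted cluster 49 were lower and 14 higher, with fitted changes from −7.75 to 3.91. The low end is miR-3072-3p, at 0 counts in every E518K library, so its fitted change is not a bound. Against the floor of 6 counts it was at least 2.10-fold lower. Of 26 tested miRNAs of the Sfmbt2 intron cluster, rodent repeats of near-identical hairpins whose counts are uncertain, 14 were lower and 3 higher.

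Lists of miRNAs typical of other cell types were small in both groups, and their calls are read against 28.9% higher and 45.3% lower over all tested miRNAs. The neural list held 0.235% to 0.486% of the counts in wild type and 0.152% to 0.212% in E518K, with 4 of 9 tested members lower and 1 higher within miRNA. The fibroblast and feeder list held 0.247% to 0.357% and 0.194% to 0.276%, with 4 of 8 lower and 1 higher. The blood list held 0.0157% to 0.0557% and 0.0298% to 0.0577% (0 of 6 lower, 2 higher), the muscle list 0.0212% to 0.0354% and 0.0111% to 0.020% (1 of 3 lower), and the liver list 0.0576% to 0.0798% and 0.00395% to 0.00857% (2 of 4 lower, 1 higher). At 0 in all 6 libraries were 3 of 16 listed neural miRNAs (both arms of miR-137 and miR-212-3p), 3 of 17 of blood (both arms of miR-223 and miR-451b), 8 of 17 of muscle, 2 of 7 of liver (miR-122-3p and miR-192-3p) and 0 of 11 of fibroblasts and feeders. The liver miRNA miR-122-5p was present, at 0.872 to 2.47 CPM in wild type and 7.42 to 12.2 in E518K. The floor of 6 counts is 0.823 to 2.33 CPM in the wild-type libraries, so its wild-type values lie near it. It was the 1 liver member called higher within miRNA, and it did not pass on the reference scale (−0.27). The part of such cells in the results was not tested.

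The 7 miRNAs higher on both scales were miR-136-5p, miR-344f-3p, miR-1981-3p, miR-1981-5p, miR-3068-3p, miR-3071-3p and miR-6516-5p. Both arms of miR-1981 come from a hairpin in an intron of Marc2 (GRCm38.p6, chromosome 1, 184822407 to 184822488, minus strand), and Mir3068 lies in an intron of Alkbh1. Per 1000 reference counts miR-1981-5p stood at 204, 168 and 120 in wild type and 304, 268 and 346 in E518K, without overlap (0.90 ± 0.34, edgeR adjusted p = 0.011). In the KO it was at 1012 to 2248. miR-1981-3p stood at 11.2, 16.7 and 9.75 against 31.8, 26.6 and 35.3 (1.32 ± 0.39), and at 50.6 to 57.0 in the KO. miR-3068-3p stood at 25.7, 28.5 and 26.2 against 51.6, 48.6 and 49.4 (0.90 ± 0.37), and at 57.7 to 59.4 in the KO. For these the E518K libraries lay between wild type and the KO.

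miR-136-5p did not lie between them. It stood at 41.6, 36.8 and 54.2 per 1000 reference counts in wild type and at 125, 54.99 and 110 in E518K (1.13 ± 0.36), with E518K clone 13 at 54.99 close to wild-type clone 16 at 54.2, while the KO was at 0.156 to 0.212. miR-3071-3p, on the opposite strand of the same place, counts the same reads (1.05 ± 0.36), and its groups overlapped on this scale. miR-136-5p thus was highest in E518K and near 0 in the KO. miR-6516-5p was listed at 0, 0 and 0.563 in wild type and at 0.568, 1.75 and 0.469 in E518K (1.79 ± 0.85), with 0.390 to 0.962 in the KO, and rests on few counts. miR-344f-3p was at 0 counts in every wild-type library and at 8, 6 and 14 counts in E518K, at least 4.22-fold higher in CPM against the floor of 6 counts per library. Per 1000 reference counts its E518K mean of 0.608 lay under the wild-type floor of 0.976, so no fold can be given on that scale.

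Most of these 7 calls on the reference scale were narrow. With the snoRNA- and tRNA-derived members taken out of the list, a setting added after the data were seen, 2 miRNAs were higher (miR-1981-3p and miR-344f-3p). With mirtrons only, miR-344f-3p alone was. In these 2 settings miR-136-5p was at 0.84 (edgeR adjusted p = 0.051) and 1.56 (0.20). miR-344f-3p was at 0 in every wild-type library, and its E518K mean lay under the wild-type floor on this scale. Its calls in these settings rest on those zeros and do not make it firmer than the others. The miR-1981-5p call ended without E518K clone 15 (adjusted p = 0.052) or wild-type clone 16 (0.11), and miR-3071-3p without E518K clone 8 (0.063). miR-3068-3p did not pass without E518K clone 8 (0.055) or wild-type clone 10 (0.051) or 16 (0.077), with TMM over the list (0.073) and with miR-1981 added to it (0.078). miR-6516-5p did not pass without E518K clone 13 (log2 change 0.97, edgeR adjusted p = 0.39) or wild-type clone 10 (1.47, 0.19) or 12 (1.30, 0.23). Nor did it pass in 8 of the other settings. Its log2 change was 6.54 without wild-type clone 16, which holds its only wild-type counts.

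Neighbouring hairpins are mostly cut from 1 primary transcript, and the share of a hairpin within its cluster depends on neither scaling beyond a small pseudocount. miRNAs that come from more than 1 hairpin were left out, so each share is of the remaining tested miRNAs of the cluster. Of 120 hairpins tested in clusters with gaps under 10 kb, 91 (75.8%) changed their share, 40 (33.3%) higher and 51 (42.5%) lower (limma on the log2 ratio of the hairpin to the rest of its cluster, adjusted p of 0.05). In 14 of 15 clusters with at least 3 tested hairpins members passed in both directions. Within a cluster the shares sum to the whole, so 1 large fall raises the others.

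In the miR-290-295 cluster Mir293 alone lost share. It made up 41.9%, 43.1% and 46.0% of the cluster in wild type and 8.43%, 8.18% and 6.8% in E518K, with no overlap (log2 ratio to the rest −3.20 ± 0.15, limma adjusted p = 9.0e-08). Both its arms fell, miR-293-5p from 164190, 183011 and 94518 CPM to 8164, 7102 and 9087 and miR-293-3p by 3.51 on the log2 scale. Its neighbours Mir294 (1.84), Mir291b (1.66), Mir292 (1.61), Mir291a (1.53) and Mir295 (1.30) gained share, and Mir290a (0.35, adjusted p = 0.42) did not pass. miR-294-3p and miR-295-3p, which carry the AAGUGCU seed printed above, did not pass within miRNA. miR-294-3p stood at 3594 to 5342 CPM in wild type and 4131 to 7227 in E518K (0.29 ± 0.29, edgeR adjusted p = 0.37), and miR-295-3p at 11625 to 17293 and 10392 to 12537 (−0.28 ± 0.29, adjusted p = 0.39). Both fell on the reference scale (−2.58 and −3.13). Of the 18 tested miRNAs listed for the cluster, some counting the same reads, 9 were lower and 0 higher within miRNA. All 18 were lower on the reference scale. Over all tested miRNAs 45.3% were lower within miRNA and 83.4% on the reference scale.

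In the miR-302-367 cluster, which lies within Larp7 on the opposite strand, Mir302a went from 46.9%, 39.5% and 37.5% of the cluster to 16.1%, 11% and 14.2% (−2.14 ± 0.25), while Mir302b (0.99), Mir302c (2.43) and Mir367 (2.64) gained. miR-302b-3p itself was lower within miRNA (−1.29 ± 0.28), a call that was lost with upper-quartile scaling (−0.53, adjusted p = 0.086).

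In the miR-17-92 cluster, within Mir17hg, Mir18 went from 3.09%, 2.29% and 2.55% to 1.11%, 0.672% and 1.21% of the cluster (−1.46 ± 0.28), and Mir20a fell (−0.76 ± 0.20) while Mir17 rose from 22.9% to 23.4% up to 35.1% to 39.4% (0.95 ± 0.23). In the X-linked miR-106a-363 cluster the paralog Mir18b went from 11.7%, 9.77% and 11.3% to 2.64%, 1.70% and 2.20% (−2.46 ± 0.23). Both miR-18 hairpins carry the AAGGUGC seed and both lost share. In both clusters the percentages leave out miR-92a-3p, which comes from Mir92-1 and Mir92-2 alike, so they are not shares of the full clusters. Mir20b gained (0.98 ± 0.31), but not past the threshold when wild-type clone 10 (adjusted p = 0.061) or 12 (0.053) was left out. In miR-106b-25, in Mcm7, Mir25 went from 75.7%, 73.8% and 67.9% to 38.9%, 29.5% and 36.4% (−2.31 ± 0.24), and Mir106b (1.86 ± 0.25) and Mir93 (1.35 ± 0.33) gained. Of the 6 tested miRNAs with the AAAGUGC seed, 1 was higher within miRNA (miR-17-5p, 1.32) and 1 lower (miR-106a-5p, −1.40). Over all tested miRNAs 28.9% were higher and 45.3% lower. miR-20a-5p, miR-20b-5p, miR-93-5p and miR-106b-5p did not pass within miRNA.

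miRNAs with the AUUGCAC seed went different ways. Since miR-92a-3p comes from Mir92-1 in Mir17hg and from Mir92-2 beside Mir363, its change cannot be assigned to 1 cluster. miR-25-3p fell from 15934 to 19387 CPM to 4555 to 5384 (−1.86 ± 0.29 within miRNA, edgeR adjusted p = 7.0e-06) and miR-363-3p by 1.15, whereas miR-92a-3p rose from 9824, 10887 and 11847 CPM to 21078, 19044 and 18755 (0.85 ± 0.29, adjusted p = 0.011). The miR-92a-3p call was lost without E518K clone 8 (0.091) or wild-type clone 10 (0.094), with all 11 libraries (0.062) and with no low-count filter (0.13). The miR-363-3p call was lost with total counts (−0.83, adjusted p = 0.053) and upper-quartile scaling (−0.39, 0.22). Of the 6 tested miRNAs with this seed 4 were lower and 1 higher, and their summed level went from 32306 to 25939 CPM. miR-92a-3p too was lower on the reference scale (−1.97 ± 0.36), though not with mirtrons only (−1.57, adjusted p = 0.14).

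**Figure D3:**
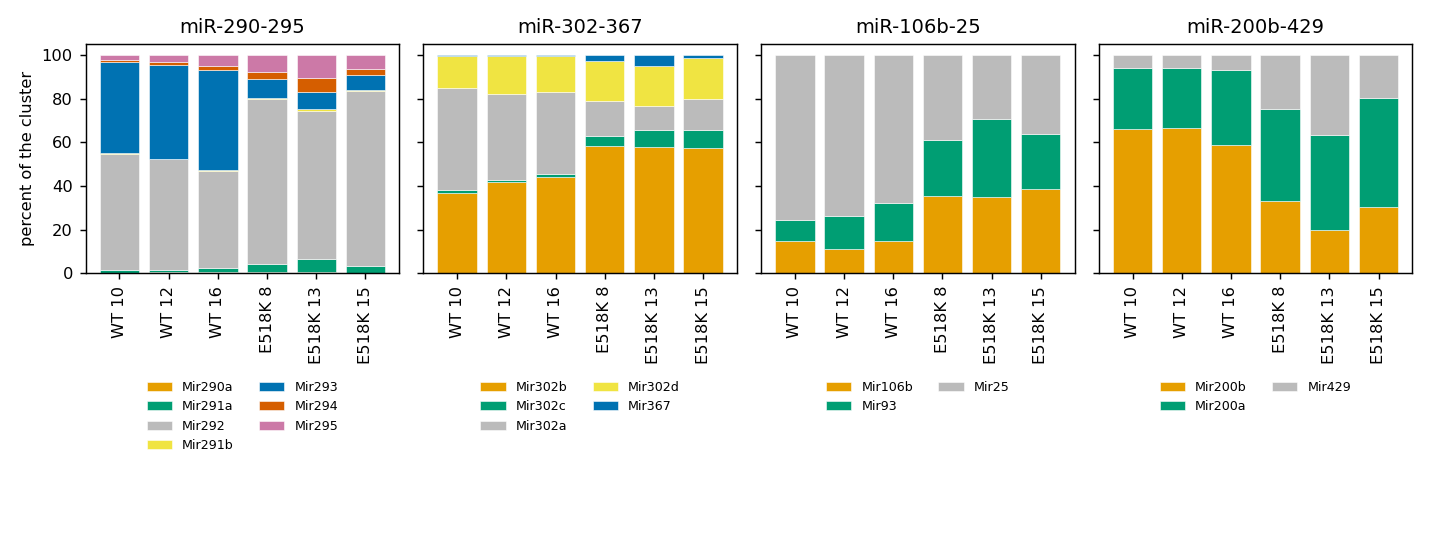
Percent of the summed CPM of a cluster held by each hairpin (stacked bars) in 3 wild-type and 3 E518K clones, for 4 clusters. Mir293, Mir302a, Mir25 and Mir200b shrink in every E518K clone relative to every wild-type clone, and the other hairpins fill the space.

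In the epithelial miR-200b-429 cluster Mir200b went from 66.0%, 66.4% and 58.9% to 32.9%, 19.8% and 30.2% (−2.23 ± 0.29), while Mir429 (2.43 ± 0.36), of the same AAUACUG seed, and Mir200a (0.95 ± 0.24) gained. In Spaca6, Mir99b lost share (−1.59 ± 0.37) to Mir125a (1.62 ± 0.40) and Mirlet7e. The miR-183-96-182 cluster, whose members all rose within miRNA, changed little inside: Mir183 gained 0.73 ± 0.15 and Mir182 lost 0.71 ± 0.15 on the log2 scale, with Mir182 at 58.6% to 63.3% in wild type and 47.6% to 51.2% in E518K.

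Pairs of hairpins parted further. Mir191 made up 89.3%, 90.9% and 90.7% of the counts it shares with Mir425 in wild type and 99.5%, 99.6% and 99.1% in E518K (4.11 ± 0.29, limma adjusted p = 1.4e-06). miR-425-5p fell from 131 to 188 CPM to 10.4 to 19.9 (−3.45 ± 0.39), while miR-191-5p went from 1275 to 2161 to 2346 to 2953 (0.71 ± 0.28, adjusted p = 0.029), which did not pass without E518K clone 8 (0.56, adjusted p = 0.14) or wild-type clone 10 (0.46, 0.23) or 16 (0.72, 0.084), with all 11 libraries (0.12), with no filter (0.28) and with the pRPM totals (0.16). Mir16-1, read by its 3p arm only because miR-16-5p has another hairpin too, went from 98.2%, 97% and 94.9% of its sum with Mir15a, in Dleu2, to 99.9% in each E518K clone, with Mir15a at few counts. Mir15b lost to Mir16-2 (−2.33 ± 0.26), Mir181d to Mir181c (−1.38 ± 0.23) and Mir341 to Mir370 (−3.66 ± 0.30). Thus in both miR-15/16 pairs the hairpin of the miR-15 kind lost share.

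In the Dlk1-Dio3 region the run from Mir379 to Mir410 held 35 hairpins, of which 33 were tested, with 18 lower and 11 higher. Mir134 went from 5.21%, 4.02% and 4.69% of the run to 0.0411%, 0.0341% and 0.0464% (−6.71 ± 0.22) and Mir379 changed by −5.23 ± 0.27. Mir409, in the same run, went from 9.08%, 8.36% and 8.22% to 39.5%, 30.6% and 36.0% (2.54 ± 0.25), Mir412 by 3.07 and Mir495 by 2.40. Mir493, in a neighbouring run that holds Mir127, changed by −4.28.

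The ratio of the 5p to the 3p arm of a hairpin is also free of the scaling. Of 103 hairpins with both arms measured 16 (15.5%) passed (limma, adjusted p of 0.05), 10 (9.71%) with more 5p arm in E518K and 6 (5.83%) with less. These counts moved with the setting and with single clones: leaving out wild-type clone 12 gave 5, wild-type clone 10 gave 9 and E518K clone 8 gave 10, against 27 with a pseudocount of 5 CPM. Of the 16, 6 hairpins count the reads of another.

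Mir136 changed most. Its log2 ratio of 5p to 3p went from −3.02, −3.20 and −2.85 in wild type to 2.04, 1.29 and 2.38 in E518K (4.93 ± 0.31, limma adjusted p = 1.5e-06), so that the main arm switched. The 5p arm rose from 66.1 to 996 CPM on average while miR-136-3p fell from 558, 478 and 579 to 294, 286 and 205 (−1.04 ± 0.28 within miRNA), a call lost with total counts (−0.71, adjusted p = 0.13) and upper-quartile scaling (−0.29, 0.33). miR-3071 mirrors it on the opposite strand (−4.85 ± 0.31), and since the strand setting of the counting is unknown here, the reads cannot be assigned to either hairpin. Both hairpins lie over a coding transcript of Rtl1.

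Among hairpins with their own reads, miR-152, in an intron of Copz2, went from −3.94, −3.91 and −4.50 to −1.74, −2.67 and −1.41 (2.17 ± 0.37), as its minor 5p arm rose from 51.7 to 211 CPM and the 3p arm stood at 886 and 746. miR-127, also opposite Rtl1, went from −1.10, −1.09 and −0.50 to 0.72, 0.88 and 0.57 (1.63 ± 0.26), so that the 5p arm led in E518K; it did not pass with diffSpliceDGE (adjusted p = 0.12). miR-291b changed by 1.46 ± 0.29, lost with diffSpliceDGE (0.52, adjusted p = 0.73) or without wild-type clone 12 (1.42, adjusted p = 0.054). miR-135b, outside the rule for named hairpins and chosen after its values were seen, went the other way, from 2.49, 2.39 and 2.34 to −0.99, −1.19 and −1.07 (−3.49 ± 0.27): its 5p arm fell from 212 to 9.43 CPM and its 3p arm from 39.0 to 20.9. In these 5 hairpins the groups did not overlap.

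**Figure D4:**
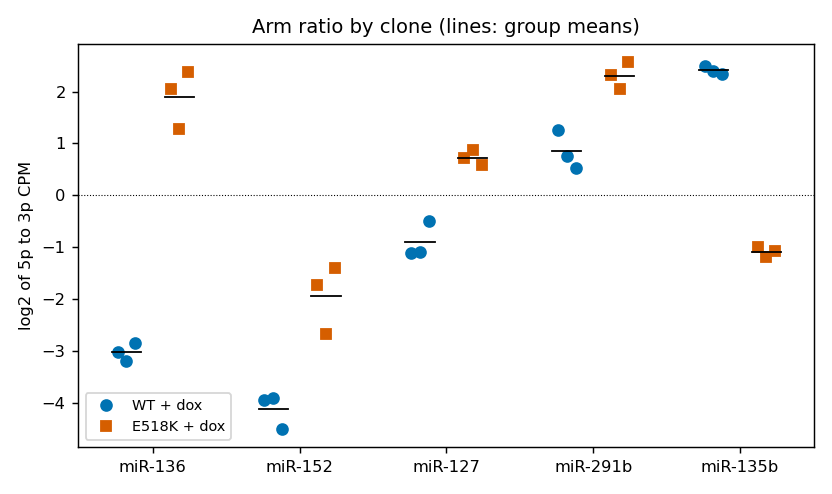
Log2 ratio of 5p to 3p CPM in each of 3 wild-type (circles) and 3 E518K (squares) clones for 5 hairpins; short lines are group means and the dotted line is equal arms. miR-136 and miR-127 cross from below 0 to above it in E518K, and miR-135b crosses the other way.

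Sequence features of the hairpin were compared with the change of 1 of its arms, for 280 hairpins, as a description with no test. The arm was the more abundant of the tested arms that have a reference sequence and come from no other hairpin. It was not always the main arm: Mir135b was read by miR-135b-3p, its minor arm in wild type. Hairpins that count the same reads, such as Mir290a and Mir290b, entered separately. The number of bases between the mature arms, a measure of the apical loop, could be read in 238. Where it was 14 or fewer, 10 of 76 hairpins were higher and 41 lower within miRNA, with a median change of −1.10. With 15 or 16 bases the median was −0.77 (16 higher and 30 lower of 62), with 17 or 18 it was 0.04 (15 and 19 of 44), and with 19 or more it was 0.88 (29 and 15 of 56). On the reference scale the medians in the same order were −3.91, −3.58, −2.77 and −1.98, all below 0. Over all 280 hairpins 84 (30.0%) were higher and 127 (45.4%) lower within miRNA, and the medians were −0.56 and −3.36.

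The same order, though flatter, was seen among the hairpins whose arm used here was under 1 count per 1000 reference counts in the KO. This limit is absolute, so scarce hairpins that bypass the microprocessor pass it too. The mirtron Mir702 is 1 of them (57 bases between the arms, 0.531 in the KO). Under the limit the medians were −1.20 (66 hairpins), −1.06 (52), −0.85 (35) and 0.02 (39). Outside the Dlk1-Dio3 region and under that KO limit they were −1.18 (41), −0.87 (39), −0.35 (31) and 0.76 (34). The ranges were wide: the middle 50% of hairpins with 19 or more bases ran from −0.75 to 2.62, and of those with 14 or fewer from −3.30 to 0.18. A UGU between the arms, the letters of an apical motif described for microprocessor substrates, was present in 89 hairpins (median 0.02) and absent in 149 (median −0.66); longer loops hold any 3 letters more often, so the features overlap. Other features looked at were GC share, mean level and a neighbouring hairpin under 10 kb. Of 143 hairpins without such a neighbour 56 were higher and 62 lower within miRNA (median −0.25). Of 137 with a neighbour 28 were higher and 65 lower (median −0.66). Whether this overlaps with the bases between the arms was not tested. The 5′ and 3′ flanks of the hairpins were not analysed here.

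**Figure D5:**
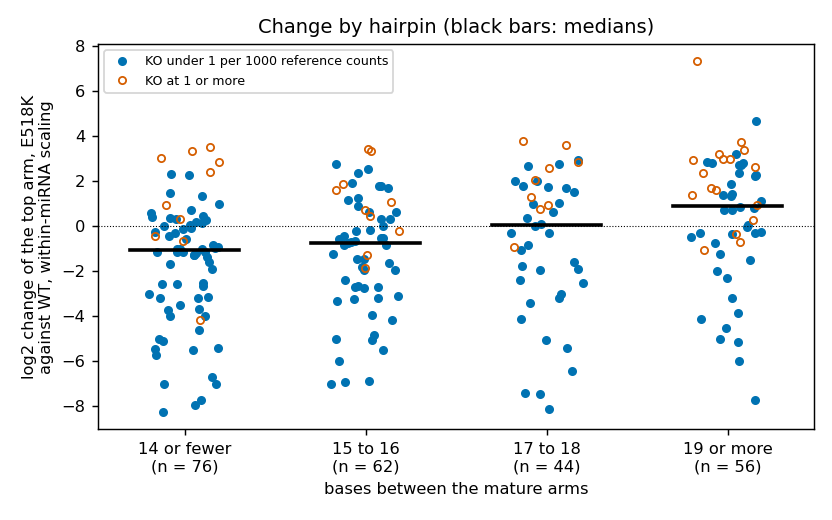
Log2 change of 1 arm of each of 238 hairpins in E518K against wild type with within-miRNA scaling, by the number of bases between the mature arms. The arm is the more abundant of those tested that have a reference sequence and come from no other hairpin. Filled points were under 1 count per 1000 reference counts in the KO and open points at or above it. Black bars are medians over all points. The medians go from −1.10 to 0.88 from the shortest to the longest class, with overlap between classes.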

How the data were processed

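The authors deposited raw read counts of 1966 miRNAs per library and a rescaled RPM table (pRPM) in which libraries of a group share 1 total; its values gave whole reads that equalled the counts. Per the submitters' processing notes STAR, bedtools and GRCm38.p6 were used; which counting rule or strand setting was used is not given in the sources. edgeR 4.0.16 (R 4.3.3; robust quasi-likelihood, filterByExpr, minimum count 10, minimum total 15) was fitted to the 6 libraries with TMM factors, and again with library sizes set by the summed reference list; p-values were adjusted by Benjamini-Hochberg over 530 miRNAs. Arm ratios and cluster shares were tested with limma 3.58.1 on log2 CPM with a pseudocount of 1, at a mean of 10 CPM or more. DESeq2 1.42.0 was an alternative. Functions were tested on simulated data. In 28 sets, 56 miRNAs count the same reads within 2%. Positions and loops are from RefSeq and GENCODE.

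The members, lists and tests were chosen with earlier results of these data known. The rule for named miRNAs takes the 8 most abundant miRNAs of each group, the 8 largest non-overlapping changes in each direction at 100 CPM or more, those higher on both scales, the reference list, hairpins of at least 100 CPM with the largest arm or share changes, and each list's most abundant and most changed member. Not every miRNA that the rule gave is printed, and other hairpins of the listed clusters, and miR-18a, miR-425, miR-200b and their like, were chosen after their values were seen. The clones of the 2 groups came from separate transfected clones per the labels; whether they were cultured in parallel is not given. Each library is 1 clone, so each ± SE includes the spread between clones. The floor of 6 counts covers counting error only.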

Additional observations from a re-analysis of the deposited data

Results flagged for a closer look

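The untreated library of wild-type clone 10, which was in no comparison, held 113736 miRNA counts per 1000 reference counts, above the 5815 to 8142 of the KO libraries and just above the highest induced E518K library (110931). Its induced partner held 806994. The untreated library of E518K clone 8 held 6258, within the KO range. These are 1 library each, and no test was made. Groups of 3 libraries are too small for a test of single libraries standing apart.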

How the results depend on the processing

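No paired analysis was possible because the compared groups share no clone numbers. Within-miRNA calls stayed within 1.5 times the reported counts (144 to 174 higher and 197 to 272 lower when 1 clone was left out) except with the stricter filter, which tests 361 miRNAs and gave 154 lower. On the reference scale the 7 higher became 12 with all 11 libraries, 2 without snoRNA- and tRNA-derived members and 1 with mirtrons only, and 5 to 10 with 1 clone left out; the 442 lower ranged from 404 to 493 in the latter, and were 322 with mirtrons only. Arm ratios gave 4 and 2 (higher and lower) with diffSpliceDGE, 5 and 1 at a mean of 50 CPM, 13 and 14 with a pseudocount of 5 CPM, and 3 to 9 and 2 to 8 with 1 clone left out; cluster shares gave 35 to 41 and 46 to 52. The fall of the miR-7 family was −10.6 percentage points with same-read miRNAs merged. Signs of values near 0 turned for miR-27b-3p (0.10 with the stricter filter, 0.41 with upper quartile) and miR-26a-5p (−0.16 with no filter) within miRNA. On the reference scale they turned for let-7f-5p (−0.13 with miR-1981 in the list, −0.15 without snoRNA- and tRNA-derived members, and −0.02, −0.06, −0.25 and −0.23 without E518K clone 15, E518K clone 8, wild-type clone 10 and wild-type clone 16; 0.94 without wild-type clone 12). They turned there for miR-222-3p too (0.045 without miR-320, 0.039 without miR-484, 0.35 with mirtrons only, and 0.053, 0.014 and 0.092 without E518K clone 13, wild-type clone 12 and wild-type clone 16). The cause was not tested. Depth limits miRNAs under 6 counts, 2.76 to 4.59 CPM after TMM scaling in E518K.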
